A study of Mus musculus with 18 samples.

Results

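The integrated stress response and the unfolded protein response of the endoplasmic reticulum (ER) were followed through 10 genes in crypts of the mouse small intestine after induced loss of Prmt1, which encodes a protein arginine methyltransferase. The genes were chosen by name: the regulator Atf4, the 7 ATF4 target genes Atf5, Ddit3, Ddit4, Asns, Trib3, Chac1 and Sesn2, and the 2 ER stress genes Hspa5 and Xbp1. They correspond to 11 of the 55335 rows of the count table, because Ddit3 has 2 rows, and all 11 rows passed the filter on low counts that left 21349 genes for testing. KO mice carried Prmt1 alleles flanked by LoxP sites together with Vil-CreERT2, a tamoxifen-activated Cre recombinase driven by the villin promoter of intestinal epithelium, and WT mice were littermates with the LoxP alleles and no Cre. Mice of both genotypes were 8 to 12 weeks old and received 2 mg tamoxifen per injection. Only KO mice carried Cre, so the transgene and the loss of Prmt1 cannot be told apart. Males and females were both used, matched between genotypes, and the labels do not give the sex of a library, so sex was no term in the fit. Crypts were taken on day 2, after 2 injections, or on days 7 and 14, after 5 injections, counted from the first injection, with 3 mice and 3 RNA-Seq libraries in each of the 6 groups and 18 libraries in all.

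The libraries held 12844642 to 31493484 counted fragments. Levels are in counts-per-million units (CPM), scaled by TMM normalization, and are given for replicates 1, 2 and 3 in that order. Prmt1 was lower in KO on each day, with 13.6, 17.4 and 16.4 CPM in KO and 22.3, 25.9 and 23.1 CPM in WT on day 7, and with log2 fold changes of -0.89, -0.59 and -0.72 on days 2, 7 and 14 (adjusted p = 0.0264, 0.00675 and 0.00329). Its day 2 call was lost without any 1 of the 6 libraries of that day (adjusted p from 0.0816 to 0.183), in a fit of the 2 groups alone (0.0939) and with the replicate number as a block (0.0531), and its day 7 call without KO replicate 1 (0.0655), while KO lay below WT in every library on each day. The 6 epithelial markers Epcam, Cdh1, Vil1, Krt8, Krt18 and Cldn7 were detected in every group, and their summed level ranged from 4074 to 8010 CPM. Unless DESeq2, another filter or an unadjusted p is named, p-values are from the quasi-likelihood test of edgeR, adjusted by the Benjamini-Hochberg method over the 21349 genes, and a gene is said to be called when its adjusted p is under 0.05. Errors of log2 fold changes are standard errors (SE) derived from that fit with 3 libraries per group. Each is the absolute log2 fold change divided by the square root of the F statistic of the test.

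The integrated stress response starts when any of several kinases, each sensing a different strain such as amino acid shortage, heme shortage, double-stranded RNA or misfolded protein in the ER, phosphorylates the translation factor eIF2. General protein synthesis then falls while the Atf4 mRNA is translated more, and the ATF4 protein activates genes for amino acid uptake and synthesis, tRNA charging, redox defence and, under lasting stress, cell death. The unfolded protein response shares the ER kinase PERK with this pathway and adds the sensors ATF6 and IRE1, the latter of which splices the Xbp1 mRNA, and both of these induce ER chaperones such as the product of Hspa5. In the intestine the unfolded protein response is best known from the secretory Paneth and goblet cells. Counts per gene measure neither translation of Atf4 nor splicing of Xbp1.

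The sequences upstream of Asns, Chac1 and Hspa5 are shown because they carry the motifs known for the ATF4 arm and for the ER stress arm of the response. RefSeq promoter windows of GRCm38.p6, the build named mm10 in the count table, were found for 10 of 10 genes, Atf5 with 2, and each ran from 250 bases before to 50 bases after the start. They were searched on both strands for the C/EBP-ATF response element (CARE, TGATGNAA) bound by ATF4 dimers, the ER stress response element (ERSE, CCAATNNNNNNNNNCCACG) and the XBP1 element (UPRE, TGACGTG). Letters fixed by the motif are in capitals in the 250 bases upstream of Asns (chr6:7693210-7693459, minus strand), Chac1 (chr2:119350992-119351241, plus strand) and Hspa5 (chr2:34771840-34772089, plus strand), written 5′ to 3′ along the gene.
Asns: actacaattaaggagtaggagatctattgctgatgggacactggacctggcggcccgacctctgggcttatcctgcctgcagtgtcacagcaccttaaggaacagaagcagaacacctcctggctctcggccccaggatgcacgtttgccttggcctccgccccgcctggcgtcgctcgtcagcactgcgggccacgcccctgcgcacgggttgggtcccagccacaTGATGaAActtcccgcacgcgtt
Chac1: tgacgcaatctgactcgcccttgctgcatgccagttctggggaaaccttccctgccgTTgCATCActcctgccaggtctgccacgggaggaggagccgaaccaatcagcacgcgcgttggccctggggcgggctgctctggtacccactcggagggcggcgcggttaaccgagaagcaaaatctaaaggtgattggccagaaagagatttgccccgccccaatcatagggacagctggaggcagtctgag
Hspa5: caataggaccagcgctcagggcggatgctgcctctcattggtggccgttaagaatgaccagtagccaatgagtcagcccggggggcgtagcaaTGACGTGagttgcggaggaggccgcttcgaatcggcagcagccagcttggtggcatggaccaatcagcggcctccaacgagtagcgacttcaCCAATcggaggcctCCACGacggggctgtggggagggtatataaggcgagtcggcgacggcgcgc
The CARE of Asns began 23 bases before the start, and that of Chac1 lay on the opposite strand, 193 bases before it. Another CARE lay on the opposite strand of Trib3, 14 bases after the start, outside the stretch of upstream sequence (chr2:152344039-152344046). CARE letters were present in 3.97% of the 32851 windows of all genes, so 3 of 10 genes is a description of these windows and not a test. Hspa5 held an ERSE 65 bases before its start, letters present in 0.119% of all windows, and a UPRE 157 bases before its start, present in 2.01%. No match was found in the windows of Atf4, Atf5, Ddit3, Ddit4, Sesn2 and Xbp1, which says only that these letters are not in these 300 bases.

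In WT crypts the 10 genes spanned a wide range of levels. On the scale of CPM per kilobase of exon, averaged over the 9 WT libraries, Hspa5, which encodes the ER chaperone BiP, was the most abundant with 143.7 and a range of 92.3 to 213. Xbp1, a transcription factor gene of the unfolded protein response, followed with 53.8 and a range of 42.6 to 69.3, and Atf4 with 42.7 and a range of 38.3 to 45.6. Asns came next with 13.3, Ddit4 with 9.66, Ddit3 with 5.63, Atf5 with 3.09, Sesn2 with 2.21, Trib3 with 1.45 and Chac1 with 1.33. The ranges over the 9 libraries overlapped between Xbp1 and Atf4, Asns and Ddit4, Ddit4 and Ddit3, Atf5 and Sesn2, Sesn2 and Trib3, and Trib3 and Chac1. They did not overlap between Hspa5 and Xbp1, Atf4 and Asns, or Ddit3 and Atf5. Over all 18 libraries, KO included, Chac1 had the fewest fragments, 15 to 172 per library, and Hspa5 the most, 7736 to 27585.

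On day 7, 6 of the 10 genes were higher in KO crypts and 0 were lower: Atf4, Atf5, Ddit3, Trib3, Sesn2 and Hspa5. The fitted KO levels of these genes were 1.45 times (Atf4) to 2.50 times (Atf5) those of WT. The number called was 3 without KO replicate 1 or without WT replicate 2, and 4 or 6 without any 1 of the other libraries of that day. Over all genes tested, 7.11% were called higher and 10.2% lower on that day. In the same 6 genes all 3 KO libraries lay above all 3 WT libraries, which was so for 15.9% of all genes tested. The median log2 fold change over the 10 genes was 0.57, beside 0.02 over all genes, and their log2 fold changes ran from -0.39 to 1.32. An unadjusted p under 0.05 was found for 7 of the 10 genes and for 29.9% of all genes, and DESeq2's Wald test called 6 of the 10 and 19.4% of all genes. In bulk samples such as these crypts, fewer cells of a type and less RNA per cell cannot be told apart.

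**Figure D1:**
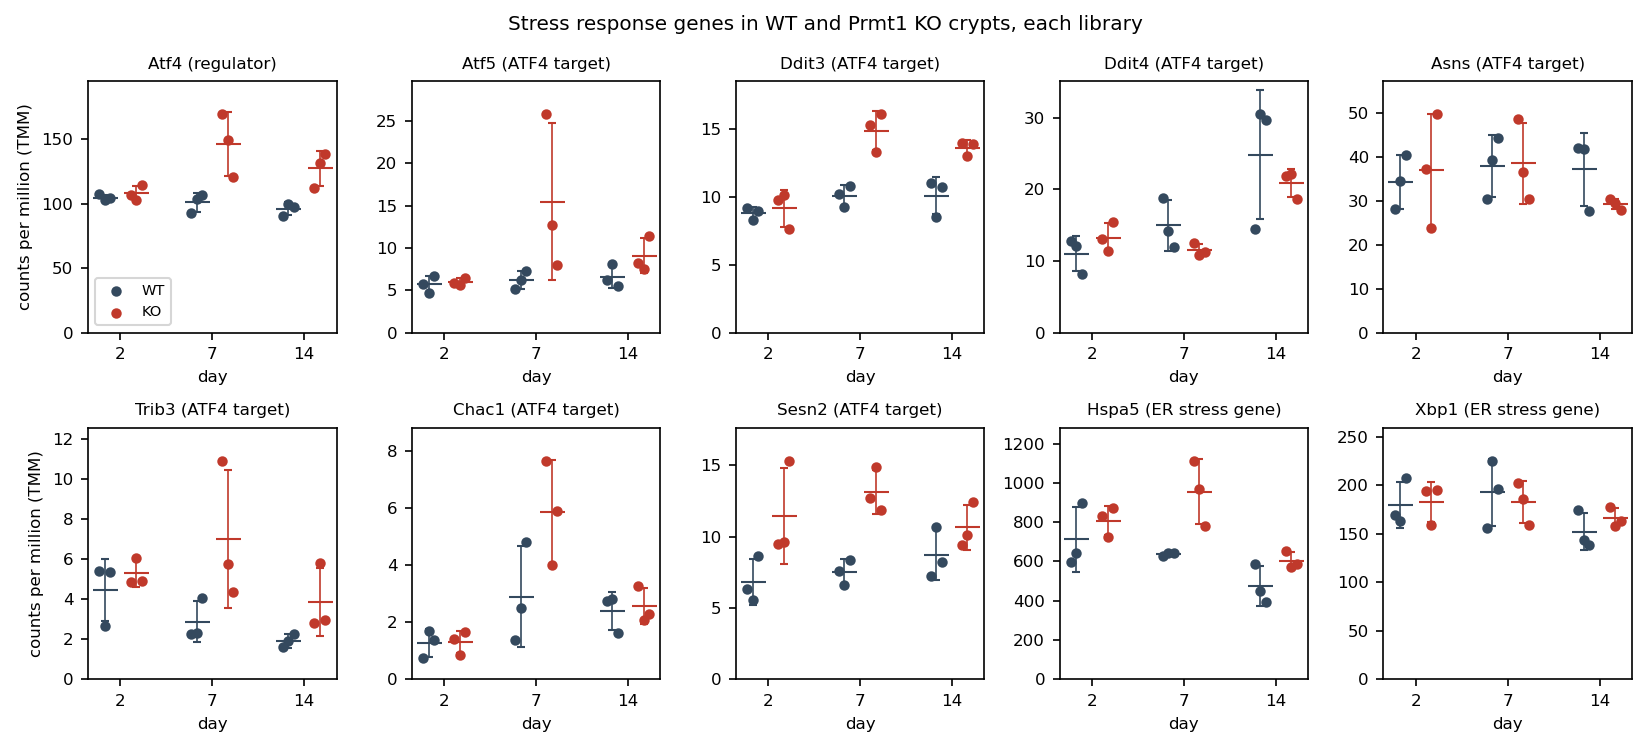
Level of each of the 10 genes in CPM (vertical axis, from 0) in every library on days 2, 7 and 14 (horizontal axis), with WT in dark blue and KO in red, and bars for the mean ± SD of 3 libraries. On day 7 the KO points lie above all WT points for Atf4, Atf5, Ddit3, Trib3, Sesn2 and Hspa5, and they overlap for Ddit4, Asns, Chac1 and Xbp1.

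Atf4 (chr15:80255184-80257541), the regulator, had 169.6, 149.8 and 121 CPM in the KO libraries of day 7 and 92.9, 104 and 107 CPM in those of WT. All 3 KO libraries were above the highest WT library, and the log2 fold change was 0.53 ± 0.13 (adjusted p = 0.00715). On day 14 the KO libraries had 112, 132 and 139 CPM and the WT libraries 90.4, 100.1 and 97.7 CPM. The groups again did not overlap, but the adjusted p of 0.0571 missed the threshold (log2 fold change 0.41 ± 0.13). Atf4 was called on day 14 by DESeq2 (0.0161), with a mean count of at least 50 required (0.0257) and without KO replicate 1 (0.0497). On day 2 the 6 libraries lay between 103 and 115 CPM with overlapping groups, and the log2 fold change was 0.05 ± 0.13.

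Atf5 (chr7:44812256-44816658) encodes a related transcription factor that is itself an ATF4 target and is known for the mitochondrial unfolded protein response. Its KO libraries of day 7 had 25.8, 12.7 and 7.95 CPM and its WT libraries 5.11, 6.20 and 7.27 CPM, so KO replicate 1 was far above the other two and replicate 3 only just above WT. The log2 fold change of 1.32 ± 0.31 was close to that of Trib3 (adjusted p = 0.00576), and without KO replicate 1 it was 0.77 with an adjusted p of 0.0502. On day 14 the KO libraries had 8.28, 7.57 and 11.5 CPM and the WT libraries 6.27, 8.09 and 5.47 CPM, the groups overlapped, and Atf5 was not called (log2 fold change 0.45 ± 0.31, adjusted p = 0.44). On day 2 the KO libraries, 5.59 to 6.47 CPM, lay within the WT range of 4.67 to 6.65 CPM. Atf5 shares 82 bases, 4.11% of its exon length, with Nup62 and Il4i1 on the opposite strand, and fragments were counted without strand.

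Ddit3 (chr10:127290774-127296288) encodes CHOP, a transcription factor induced by ATF4 and by the ER stress sensors and tied to stress-induced cell death. On day 7 it had 15.3, 13.3 and 16.1 CPM in KO and 10.2, 9.26 and 10.8 CPM in WT. The log2 fold change was 0.56 ± 0.14 (adjusted p = 0.0105), and the KO libraries were more alike than those of Atf5. On day 14 it had 14.0, 12.99 and 13.9 CPM in KO and 11.03, 8.49 and 10.7 CPM in WT, with no overlap, a log2 fold change of 0.44 ± 0.14 and an adjusted p of 0.0697, which DESeq2 gave as 0.0348. A second row with the same symbol (chr10:127290829-127293753) holds 105 bases that lie wholly within the longer gene model, so both rows count the same fragments there. It had 3.16, 2.21 and 2.45 CPM in KO and 1.22, 1.53 and 1.45 CPM in WT on day 7 (log2 fold change 0.90 ± 0.23, adjusted p = 0.00936), a call lost without KO replicate 1 (0.0607) or WT replicate 1 (0.055). The longer row also shares 68 bases, 3.97% of its exon length, with Mars on the opposite strand.

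Trib3 (chr2:152337422-152344032) encodes a pseudokinase that is induced by ATF4 and CHOP and restrains them. Its KO libraries of day 7 had 10.9, 5.76 and 4.32 CPM and its WT libraries 2.23, 2.30 and 4.03 CPM. KO replicate 3 lay only slightly above WT replicate 3, and the log2 fold change was 1.28 ± 0.36 (adjusted p = 0.0172). The call was lost without KO replicate 1, where the log2 fold change was 0.84 and the adjusted p 0.135, and without WT replicate 1 (0.0842) or WT replicate 2 (0.0726). On day 14 the libraries had 2.79, 5.80 and 2.97 CPM in KO and 1.59, 1.90 and 2.27 CPM in WT, with no overlap and a log2 fold change of 0.99 ± 0.38 that was not called (adjusted p = 0.128).

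Sesn2 (chr4:132492032-132510501) encodes a leucine-sensing inhibitor of mTORC1 that responds to ATF4, p53 and NRF2. On day 7 it had 12.7, 14.8 and 11.9 CPM in KO and 7.59, 6.58 and 8.37 CPM in WT, a clear gap between the groups. The log2 fold change was 0.80 ± 0.21 (adjusted p = 0.012), and the adjusted p was 0.0555 without KO replicate 2 and 0.0556 without WT replicate 2. On day 2 Sesn2 was the only member of the 10 whose KO libraries, 9.45, 9.59 and 15.3 CPM, all lay above the WT libraries, 6.31, 5.56 and 8.65 CPM. Its log2 fold change of 0.75 ± 0.21 on that day had an unadjusted p of 0.00218 and an adjusted p of 0.999. On day 14 the groups overlapped, with 9.43 to 12.4 CPM in KO and 7.25 to 10.7 CPM in WT.

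Chac1 (chr2:119351229-119354381), which encodes a glutathione-degrading enzyme and is often used as a readout of ATF4, was not called on day 7. Its KO libraries had 7.65, 4.001 and 5.89 CPM and its WT libraries 1.37, 2.49 and 4.82 CPM, so WT replicate 3 lay above KO replicate 2. The log2 fold change was 1.01 ± 0.38 (adjusted p = 0.0737), and the adjusted p became 0.0107 at a log2 fold change of 1.63 without WT replicate 3 and 0.031 with no filter on low counts. On day 14 it had 2.08 to 3.27 CPM in KO against 1.62 to 2.80 CPM in WT, and on day 2 0.856 to 1.64 CPM and 0.738 to 1.69 CPM.

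The other two ATF4 targets gave no call in KO on any day. Asns (chr6:7675169-7693254), which encodes asparagine synthetase, had 48.6, 36.5 and 30.5 CPM in KO and 30.4, 39.3 and 44.3 CPM in WT on day 7. The libraries of both groups were spread over the same range, and the log2 fold change was 0.02 ± 0.23 (adjusted p = 0.966). On day 14 Asns had 30.3, 29.6 and 27.9 CPM in KO and 42.0, 41.9 and 27.6 CPM in WT (log2 fold change -0.34 ± 0.24, adjusted p = 0.447). Ddit4 (chr10:59949669-59951834), which encodes the mTORC1 inhibitor REDD1, had 12.5, 10.8 and 11.3 CPM in KO and 18.9, 14.2 and 11.9 CPM in WT on day 7. Its log2 fold change was -0.39 ± 0.23 (adjusted p = 0.29), with KO replicate 1 inside the WT range. On day 14 it had 21.8, 22.1 and 18.7 CPM in KO and 14.4, 30.5 and 29.6 CPM in WT, where WT replicate 1 stood far below the other two WT libraries and below every KO library.

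Of the 2 ER stress genes, Hspa5 was called on day 7 and Xbp1 was not. Hspa5 (chr2:34771970-34777547) had 1113, 968 and 781 CPM in KO and 627, 643 and 641 CPM in WT. The WT libraries were nearly equal, the KO libraries were spread, and the log2 fold change was 0.58 ± 0.19 (adjusted p = 0.0406). That call was lost in 5 of the 6 fits that left out a library of day 7, more often than for the other 5 called genes: the adjusted p was 0.156 without KO replicate 1, 0.0957 without KO replicate 2, 0.111, 0.0919 and 0.0954 without WT replicates 1, 2 and 3, and 0.0127 without KO replicate 3. With the replicate number as a block it was 0.0537. On day 14 Hspa5 had 651, 569 and 587 CPM in KO and 584, 448 and 390.4 CPM in WT, with overlap of 1 WT library (log2 fold change 0.35 ± 0.19, adjusted p = 0.311). Xbp1 (chr11:5520659-5525893) had 202, 186 and 159 CPM in KO and 156, 225 and 196 CPM in WT on day 7, with a log2 fold change of -0.08 ± 0.16 (adjusted p = 0.801), and its groups overlapped on each day.

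**Figure D2:**
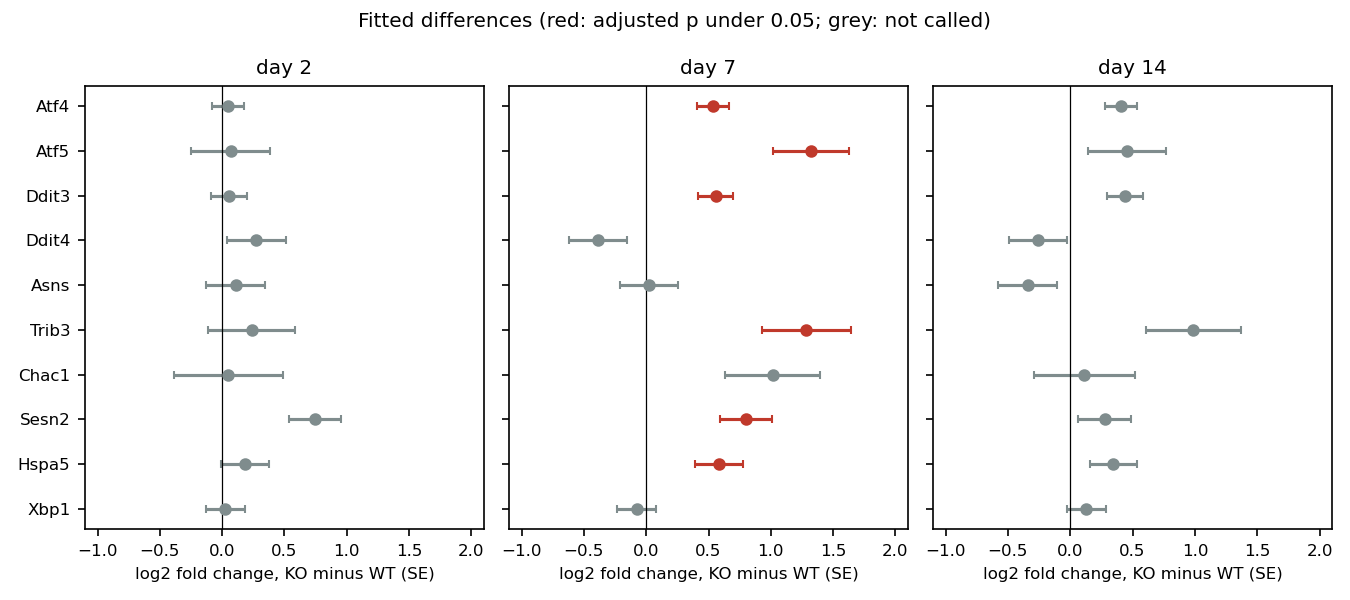
Fitted log2 fold change of KO against WT (horizontal axis, bars ± SE of the fit with 3 libraries per group) for each gene on days 2, 7 and 14, with called genes in red. The 6 red genes are those of day 7, from Atf4 at 0.53 to Atf5 at 1.32, and no gene is red on days 2 and 14.

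Markers of several cell types differed between KO and WT on the same days. Over all genes tested, 7.11% were called higher and 10.2% lower on day 7, and 29.9% had an unadjusted p under 0.05. On day 14 these shares were 3.23%, 4.69% and 21.6%. All 7 Paneth cell markers were lower in KO on day 7, where their summed level was 1353 to 3580 CPM in KO and 7868 to 13613 CPM in WT. Of 9 enteroendocrine markers, 8 were higher, with sums of 717 to 887 CPM in KO and 323 to 347 CPM in WT. Of 6 stem cell markers, 4 were lower, with sums of 459.8 to 1086 CPM in KO and 1704 to 2315 CPM in WT. Of 7 goblet cell markers, 3 were called lower and 4 had a positive log2 fold change, with a median of 0.05. Their sums of 10578 to 13931 CPM in KO and 13858 to 16296 CPM in WT overlapped. The enterocyte markers summed to 12445 to 19858 CPM in KO and 7656 to 10814 CPM in WT, with 2 of 8 called higher and 1 lower. On day 14, 8 enteroendocrine markers and 1 enterocyte marker, Sis, were higher, and 1 Paneth, 1 goblet and 1 stem cell marker were lower. The enterocyte list then had 6 of 8 genes at an unadjusted p under 0.05 and a median log2 fold change of 1.03. The Paneth list had 5 of 7 at an unadjusted p under 0.05 and a median of -1.19, and its sums of 5172 to 6899 CPM in KO and 8413 to 19249.5 CPM in WT did not overlap. Stem cell markers had 3 of 6 at that p, 1 positive value, and sums of 1573 to 1861 CPM in KO and 2118 to 2327 CPM in WT. Goblet cell markers had 4 of 7 at that p and 3 positive values, with a median of -0.10. Their sums were 10778 to 12731 CPM in KO and 13221 to 13337 CPM in WT. Of 5 tested tuft cell markers, 1 was lower on day 7 (Dclk1), with sums over all 6 listed genes of 28.1 to 63.6 CPM in KO and 69.9 to 78.9 CPM in WT, and 0 of the 5 tested genes had a positive log2 fold change. Of 7 tested stroma markers, 1 was higher on day 7 (Pecam1), with sums over all 8 listed genes of 26.1 to 78.6 CPM in KO and 19.9 to 55.1 CPM in WT, and all 7 tested genes had a positive one. The epithelial, T cell, plasma cell and myeloid lists had 0 called genes on day 7 by edgeR, with 0, 0, 0 and 1 at an unadjusted p under 0.05, and no marker was at 0 in all libraries of a group. KO replicate 1 of day 7 was the highest of its group for 8 of the 10 stress genes and replicate 3 the lowest for 7. In WT of day 7 replicate 3 was the highest for 7 and replicate 1 the lowest for 7. The part of cell composition in the levels of the 10 genes was not tested.

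On day 2, edgeR called 0 of the 10 genes, 1 had an unadjusted p under 0.05 (Sesn2) and DESeq2 called 0, beside 0.0328% of all genes called, 3.33% at that unadjusted p and 0.0609% called by DESeq2. KO lay above WT without overlap in 1 of the 10 genes, beside 4.3% of all genes tested. All 10 log2 fold changes were positive, with a median of 0.09, beside -0.0048 over all genes. On day 14, edgeR called 0, 3 had an unadjusted p under 0.05 (Atf4, Ddit3 and Trib3) and DESeq2 called 2 (Atf4 and Ddit3). Over all genes, 3.23% were called higher and 4.69% lower on day 14, 21.6% had an unadjusted p under 0.05 and DESeq2 called 9.76%, so 3 of 10 and 2 of 10 are read against those shares. The same 3 genes were without overlap and higher in KO, beside 12.4% of all genes. Their log2 fold changes on day 14 were 0.41, 0.44 and 0.99, beside 0.53, 0.56 and 1.28 on day 7. The replicate number went with shared deviations between KO and WT libraries on day 14. Added to the edgeR fit as a block over all days, it left the number of the 10 genes called on day 14 at 0. A block for each number and day also gave 0.

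The change in the KO effect between days was tested directly. From day 2 to day 7, edgeR called 0 of the 10 genes, 4 had an unadjusted p under 0.05 (Atf4, Atf5, Ddit3 and Trib3) and DESeq2 called 0, beside 4.37% of all genes called, 18.1% at that unadjusted p and 6.57% called by DESeq2. The KO effect was larger on day 7 by 0.49 ± 0.18 for Atf4, 1.25 ± 0.44 for Atf5, 0.50 ± 0.20 for Ddit3 and 1.05 ± 0.50 for Trib3 on the log2 scale (adjusted p = 0.146, 0.12, 0.188 and 0.274). Without KO day 7 replicate 3, Atf4 (0.0348) and Atf5 (0.0123) were called. For Sesn2, whose KO and WT libraries were already apart on day 2, the change was 0.06 ± 0.30. From day 7 to day 14, edgeR called 0 of the 10 genes, 0 had an unadjusted p under 0.05 and DESeq2 called 0. On that contrast edgeR called 0% of all genes, 4.46% had an unadjusted p under 0.05 and DESeq2 called 0.00937%. A difference in the KO effect between days 7 and 14 was thus not called for any of the 6 genes called on day 7.

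WT crypts of different days were compared to see how the same genes moved without loss of Prmt1, where day and number of injections cannot be told apart between day 2 and the later days. Ddit4 was higher on day 14 than on day 2, with 14.4, 30.5 and 29.6 CPM against 12.8, 12.1 and 8.25 CPM, no overlap and a log2 fold change of 1.18 ± 0.23 (adjusted p = 0.0216). It was the only one of the 10 genes called, beside 0.735% of all genes called higher and 0.871% called lower. The call was lost without WT day 2 replicate 1 (0.0796) or 3 (0.105), without WT day 14 replicate 3 (0.0597) and in a fit of the 2 groups alone (0.115). Trib3, Hspa5 and Atf4 had lower levels on day 14 than on day 2 without overlap. For Trib3 and Hspa5 this came with log2 fold changes of -1.21 ± 0.37 and -0.59 ± 0.19 that edgeR did not call (adjusted p = 0.0854 and 0.1) and DESeq2 did (0.0256 and 0.0212), and for Atf4 the log2 fold change was -0.13 ± 0.13 (adjusted p = 0.621). An unadjusted p under 0.05 was found for 4 of the 10 genes and 20% of all genes, and DESeq2 called 3 of the 10 and 6.43% of all genes. In the same comparison 2 of 8 enterocyte markers were called lower, with 8 at an unadjusted p under 0.05 and sums of 11409 to 25762 CPM on day 2 and 3703 to 10741 CPM on day 14. Of 6 T cell markers, 0 were called and 5 had an unadjusted p under 0.05, with sums of 165 to 224 CPM on day 2 and 74.6 to 119 CPM on day 14. The enteroendocrine list had 0 called and 6 of 9 at an unadjusted p under 0.05, with a median log2 fold change of -0.53 and 0 positive values. The myeloid list had 0 called and 3 of 4 at an unadjusted p under 0.05, with a median of 1.11. The part of these cell types in the levels of the 10 genes was not tested. Between days 2 and 7, edgeR called 0 of the 10 genes, 1 had an unadjusted p under 0.05 (Chac1, log2 fold change 1.19 ± 0.41, adjusted p = 0.111) and DESeq2 called 0, beside 0.553% of all genes called, 22.4% at that unadjusted p and 6.82% called by DESeq2. Between days 7 and 14, edgeR called 0, 3 had an unadjusted p under 0.05 (Ddit4, Hspa5 and Xbp1) and DESeq2 called 0, beside 0.0796%, 5.18% and 0.23% of all genes by the same rules. These comparisons and those of KO with WT share the WT libraries.

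ATF4 targets and ER stress genes were set side by side without a test, because the members were chosen with results of these data known. On day 7, 4 of the 7 ATF4 targets and 1 of the 2 ER stress genes were called higher, beside 7.11% of all genes. The median log2 fold changes were 0.80 and 0.25, a difference of 0.55. The ER stress median lay between 0.58 for Hspa5 and -0.08 for Xbp1. Ddit3 was counted only among the ATF4 targets, though the ER stress sensors induce it too. The ATF4 targets spread from -0.39 (Ddit4) to 1.32 (Atf5). For each library, the median over the ATF4 targets of log2 CPM minus the WT mean of the day was 0.63 to 0.75 in KO and -0.26 to 0.24 in WT on day 7, with no overlap. For the 2 ER stress genes it was 0.02 to 0.45 in KO and -0.16 to 0.13 in WT, with overlap. On day 14 the medians of the 2 groups of genes were 0.28 and 0.24 in log2 fold change, and on day 2 they were 0.11 and 0.10. Over the wider lists described below, the day 7 medians were closer to each other, 0.35 for 42 ATF4 targets and 0.23 for 29 ER stress genes.

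**Figure D3:**
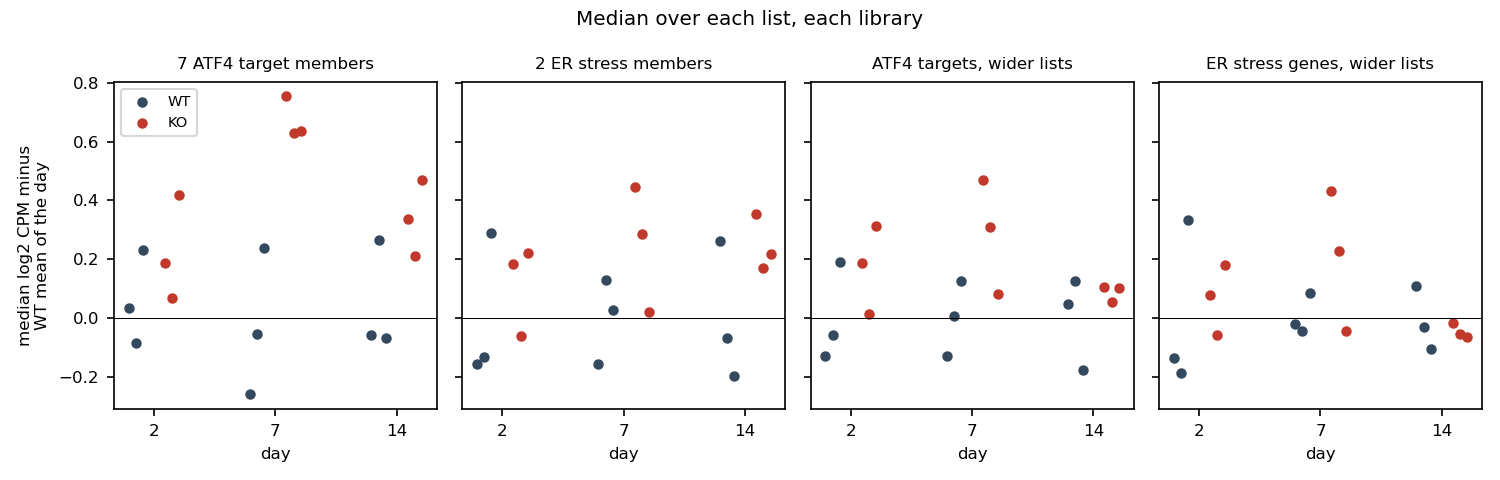
Median over each list of log2 CPM minus the WT mean of the same day (vertical axis) in every library, by day (horizontal axis), with WT in dark blue and KO in red. KO and WT are apart on day 7 for the 7 ATF4 target members (0.63 to 0.75 in KO) and overlap for the 2 ER stress members and for both wider lists.

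The rest of the ATF4 programme was read from 4 lists of known targets that hold 43 genes, of which 42 were tested. On day 7, 10 were called higher in KO, 3 lower and 29 not called, beside 7.11% of all genes called higher and 10.2% lower. The median log2 fold change was 0.35, and 36 of the 42 values were positive. The number called higher was 5 without KO replicate 1, 6 without KO replicate 2, 5 without WT replicate 1 and 6 without WT replicate 2, and 18 without KO replicate 3. On day 14, 3 were called higher and 1 lower, beside 3.23% and 4.69% of all genes, with a median of 0.10. All 3 had a mean count under 50 and were not tested when that minimum was set. On day 2, edgeR called 0 of the 42, beside 0.0328% of all genes. An unadjusted p under 0.05 was found for 2, beside 3.33% of all genes. The median log2 fold change was 0.19, and 35 values were positive.

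Of 10 serine and one-carbon enzymes, 2 were called higher on day 7, 1 lower and 7 not called. Phgdh, the entry enzyme of serine synthesis, rose from 12.5 ± 3.67 CPM in WT to 23.3 ± 5.37 CPM in KO (SD, n = 3; log2 fold change 0.90, adjusted p = 0.0277). Mthfd2, a mitochondrial folate enzyme, had 16.1 ± 1.33 CPM in WT and 24.1 ± 4.98 CPM in KO (log2 fold change 0.59, adjusted p = 0.0273). Both calls depended on single libraries. That of Phgdh was lost without KO replicate 1 (0.107) or 2 (0.0949) or WT replicate 1 (0.13) or 2 (0.0757), with no filter on low counts (0.091) and with a block for each number and day (0.0616), and that of Mthfd2 without KO replicate 1 (0.145) or 2 (0.0666) or WT replicate 1 (0.11) or 3 (0.0653). Pck2, the mitochondrial phosphoenolpyruvate carboxykinase, went the other way, from 35.8 ± 3.01 CPM in WT to 17.1 ± 1.05 CPM in KO on day 7 (log2 fold change -1.07, adjusted p = 1.07e-05). It was equally low on day 14, with 18.1 ± 1.92 CPM in KO and 39.4 ± 2.53 CPM in WT (adjusted p = 1.48e-05).

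Of 9 amino acid transporters, 1 was called higher on day 7, 2 lower and 6 not called. Slc7a3, a carrier of cationic amino acids, was almost silent in WT on day 7, with 0 to 4 fragments per library, and had 110 to 129 in KO (3.86 to 5.74 CPM, adjusted p = 1.11e-06). On day 14 it had 1 to 9 fragments in WT and 43 to 81 in KO (2.71 to 4.27 CPM, adjusted p = 2.34e-05). The neutral amino acid carriers Slc1a4 and Slc1a5 were lower in KO on day 7, with 7.66 ± 3.42 CPM in KO against 17.2 ± 2.94 in WT, and 67.3 ± 15.8 CPM against 96.0 ± 7.01 (log2 fold changes -1.17 and -0.51, adjusted p = 0.0166 and 0.0312). The Slc1a4 call was lost without KO replicate 1 (0.0813) or 2 (0.0567) or WT replicate 3 (0.0675) and with no filter (0.054), and the Slc1a5 call without KO replicate 1 (0.193) or 2 (0.0952) or WT replicate 1 (0.0641) or 3 (0.109) and in a fit of the 2 groups alone (0.0619). On day 14 Slc1a4 had an adjusted p of 0.081, and it was called lower by DESeq2 (0.0324), with the replicate number as a block (0.0399) and with a block for each number and day (0.0147).

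Of 13 aminoacyl-tRNA synthetases, 3 were called higher on day 7 and 0 lower. Aars, for alanine, had 138 ± 22.2 CPM in KO against 85.6 ± 7.24 CPM in WT (log2 fold change 0.69, adjusted p = 0.00226). Nars, for asparagine, had 286 ± 74.7 and 164 ± 12.3 CPM (log2 fold change 0.81, adjusted p = 0.00275). Yars, for tyrosine, had 66.3 ± 6.77 and 51.4 ± 4.57 CPM, and its adjusted p of 0.032 rose to 0.112, 0.105, 0.124 and 0.111 without KO replicates 1 and 2 and WT replicates 1 and 2. It was 0.156 with no filter and 0.0879 in a fit of the 2 groups alone. Aars shares 14.3% of its exon length with Exosc6 on the same strand, so some of its fragments are also counted for that gene. All 13 log2 fold changes were positive on day 7, with a median of 0.32, and edgeR called 0 of them on day 14, with 0 at an unadjusted p under 0.05.

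The fourth list held stress factors induced by ATF4 or CHOP, with 4 of 10 tested genes called higher on day 7 and 0 lower. Stc2, a secreted glycoprotein, had 2.11 to 5.87 CPM in KO against 0.216 to 0.482 CPM in WT, where a library held only 4 to 11 fragments (adjusted p = 4.35e-05). It was also called on day 14, with 2.16 to 2.71 CPM in KO and 0.0395 to 0.453 CPM in WT (adjusted p = 0.000231). Jdp2, a bZIP repressor, had 5.12 ± 1.13 CPM in KO against 1.01 ± 0.302 CPM in WT on day 7 (log2 fold change 2.32, adjusted p = 0.000212). Its day 14 call (0.04) was lost without KO replicate 1 (0.0886) or 3 (0.171) or WT replicate 1 (0.0544) or 2 (0.164) and in a fit of the 2 groups alone (0.114). Gdf15, a stress-induced hormone, had 1.68 ± 0.594 CPM in KO against 0.531 ± 0.154 CPM in WT on day 7 (adjusted p = 0.0228), a call lost without KO replicate 1 (0.109) or WT replicate 1 (0.111) or 2 (0.0538). Atf3, a transcription factor of the same family that was named after its values were seen, was the other gene called, with 5.82 ± 0.0793 CPM in KO and 2.54 ± 0.384 CPM in WT (log2 fold change 1.18, adjusted p = 0.026). Its adjusted p was 0.0594 to 0.0961 without any 1 library of day 7 other than KO replicate 3.

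**Figure D4:**
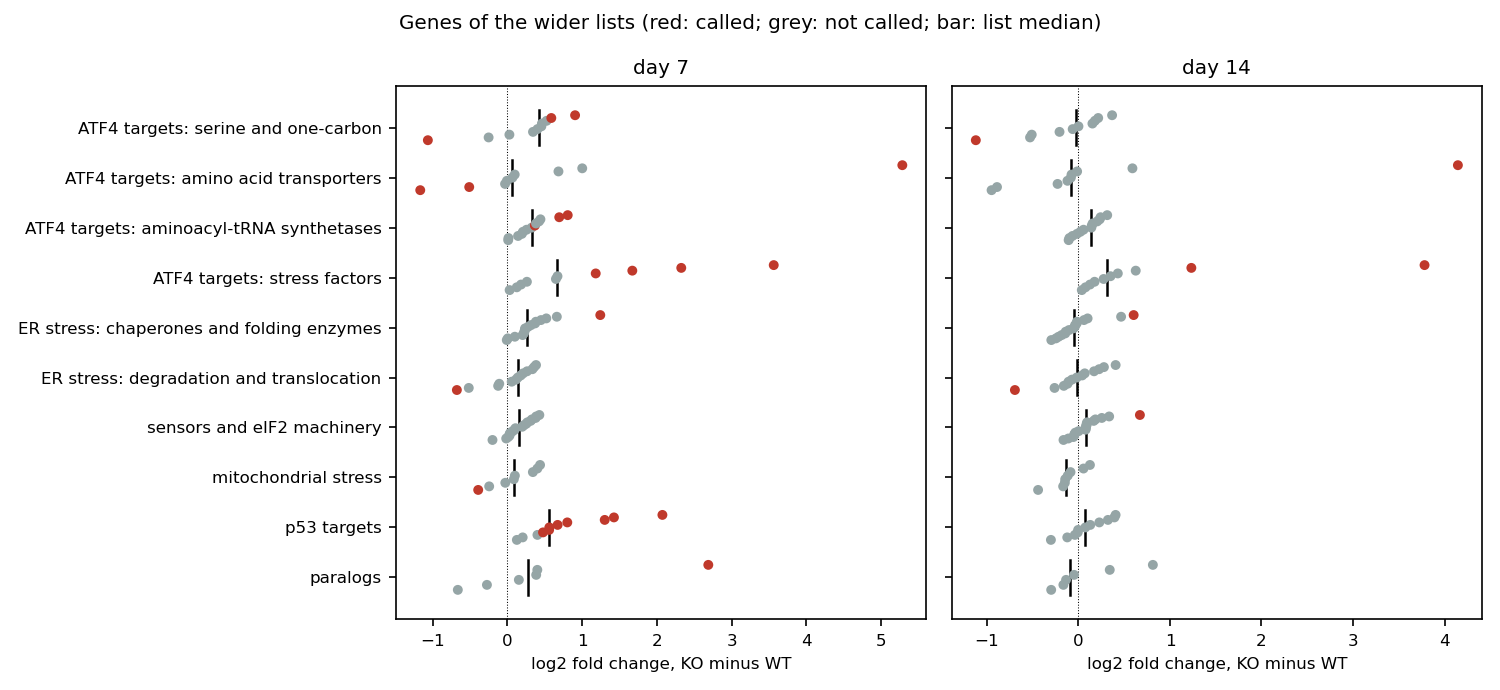
Log2 fold change of KO against WT (horizontal axis) of each tested gene in the wider lists on days 7 and 14, with called genes in red, others in grey, and a bar at the median of each list. On day 7 the medians run from 0.07 for amino acid transporters to 0.66 for stress factors, and the red points farthest to the right are Slc7a3 and Stc2 on both days.

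ER stress genes outside the 10 were read from 2 lists of 29 genes, of which 1 was called higher and 1 lower on day 7, beside 7.11% and 10.2% of all genes. Of 16 chaperones and folding enzymes, 1 was called higher on day 7 and 0 lower, with a median of 0.26 and 15 positive log2 fold changes. That gene was Ero1l, the oxidase that drives disulfide formation in the ER, with 133 ± 25.9 CPM in KO and 56.2 ± 2.79 CPM in WT (log2 fold change 1.24, adjusted p = 2.22e-05). It was again higher on day 14, at 73.1 ± 4.65 and 48.1 ± 0.627 CPM, with an adjusted p of 0.0184 that was 0.0659 without KO replicate 3 and 0.0518 without WT replicate 2. Of 13 genes of ER-associated degradation and translocation, Edem2, which directs misfolded glycoproteins to degradation, was lower in KO on day 7 at 33.1 ± 3.27 against 52.9 ± 4.71 CPM in WT (adjusted p = 0.0029). Its day 14 values were 32.6 ± 2.14 and 52.8 ± 5.20 CPM (adjusted p = 0.00496), and no other gene of that list was called. Without KO day 7 replicate 3, 7 of the 29 genes were called higher on day 7. The 2 lists together had a median of 0.23 on day 7 and -0.04 on day 14, with 24 and 10 of the 29 log2 fold changes positive.

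Sensors, eIF2 kinases and their partners gave 0 calls among 18 genes on day 7 by edgeR, beside 7.11% of all genes called higher and 10.2% lower. Of the 18, 4 had an unadjusted p under 0.05, beside 29.9% of all genes, and 16 log2 fold changes were positive, with a median of 0.15. On day 14, 1 of the 18 was called higher, beside 3.23% of all genes. This was Ern2, the IRE1 isoform of gut epithelium, with 87.2 ± 10.7 CPM in KO and 54.9 ± 17.5 CPM in WT (log2 fold change 0.67, adjusted p = 0.0253). Its call was lost without KO replicate 1 (0.0908) or 3 (0.0787) or WT replicate 2 (0.116) or 3 (0.0661) and in a fit of the 2 groups alone (0.111). Among 8 genes of the mitochondrial stress response, Dele1, which relays mitochondrial stress to an eIF2 kinase, had 31.7 ± 3.11 CPM in KO against 41.6 ± 3.26 CPM in WT on day 7 (log2 fold change -0.39, adjusted p = 0.0258). That call was lost without KO replicate 1 (0.174) or WT replicate 1 (0.051) or 3 (0.118), with no filter (0.0749) and in a fit of the 2 groups alone (0.0622).

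Because Sesn2 also responds to p53, 11 p53 targets were read beside it. On day 7, 8 were called higher, beside 7.11% of all genes, and 0 lower, among them Phlda3 (2.07 ± 0.40), Cdkn1a (1.30 ± 0.27) and Mdm2 (0.56 ± 0.12 in log2 fold change, adjusted p = 0.0015, 0.00323 and 0.0038). The count was 5 without KO replicate 2, WT replicate 1 or WT replicate 3. On day 2, 5 of the 11 had an unadjusted p under 0.05 by edgeR, beside 3.33% of all genes. KO lay above WT without overlap in 4, beside 4.3% of all genes, and the median log2 fold change was 0.41. Phlda3 was the 1 gene of the 10 wider lists called on day 2, with 1.43 to 4.75 CPM in KO and 0.489 to 0.656 CPM in WT (adjusted p = 0.0401), and that call was lost without any 1 library of day 2 other than KO replicate 2 (0.161 to 0.338), in a fit of the 2 groups alone (0.281) and with the replicate number as a block (0.113). On day 14, edgeR called 0 of the 11, 1 had an unadjusted p under 0.05 and DESeq2 called 0. The part of p53 in the level of Sesn2 was not tested.

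The closest paralogs of the members gave 1 call. Ddit4l, a paralog of Ddit4, had 0.786 to 1.38 CPM in KO against 0.0876 to 0.252 CPM in WT on day 7, where WT libraries held 2 to 7 fragments (adjusted p = 0.00375). Trib1 had 25.7 ± 1.39 CPM in KO against 19.4 ± 0.994 CPM in WT without overlap (adjusted p = 0.0737), and Trib2 had 0.222 to 1.00 CPM in KO against 0.828 to 0.895 CPM in WT (adjusted p = 0.462). Chac2 (0.38 ± 0.20), Sesn1 (-0.28 ± 0.17) and Sesn3 (0.15 ± 0.12) were not called, all as log2 fold changes on day 7.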

How the data were processed

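Total RNA of small intestinal crypts, depleted of ribosomal RNA, was sequenced from 18 mice, 3 in each of 6 groups of genotype and day. Per the file headers, the authors deposited raw fragment counts per gene made with featureCounts 1.6.4 on mm10 and GENCODE mouse release 23, while the study's methods name release 26. A fragment that overlapped several genes was counted for each, strand was ignored, and a fragment that aligned to several places was left uncounted. The submitters' processing notes also name STAR 2.7.3 and HTSeq. Totals of 12844642 to 31493484 counts set the precision of the rare genes.

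The 20 sex-related genes that the study removed were left out, and genes were filtered with filterByExpr by group. All libraries were fitted together with 6 group means, TMM normalization and the robust quasi-likelihood test of edgeR 4.0.16 (limma 3.58.1, R 4.3.3), with Benjamini-Hochberg adjustment over 21349 genes and a threshold of 0.05. The comparisons were KO with WT within a day, WT between days, and the KO effect between days. Log2 CPM per library used a prior count of 2. The longer Ddit3 row stands for the gene. The scripts were tested on simulated data. Python 3.11.15 with pandas 2.3.3 and numpy 2.4.6 summarised the tables, and matplotlib 3.10.9 drew the figures.

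The genes and the 10 wider and 11 marker lists were chosen with earlier results of these data known. Named were the 10 genes, Prmt1 and the paralogs Ddit4l, Trib1, Trib2, Chac2, Sesn1 and Sesn3. From each wider list on days 7 and 14, up to 3 called genes in each direction were named, those with the smallest p among genes without overlap of KO and WT. Atf3 was added afterwards.

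Alternatives were DESeq2 1.42.0, its size factors, the 20 most abundant genes left out, no filter, a mean count of at least 50, the 20 removed genes kept, the replicate number as a block, a fit of only the groups compared and each library left out. A block for each number and day was added after seeing the data. The correlation of deviations from the group mean between KO and WT libraries with the same number was 0.159 to 0.227 on day 14, where each of the 3 pairs was over 0.1. It was 0.0478 to 0.381 on day 2 and -0.159 to 0.206 on day 7, so the numbers were taken to pair samples on day 14 only, from these correlations and not from the labels. No library pair held identical values. Each library was described as 1 mouse.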

Additional observations from a re-analysis of the deposited data

Results flagged for a closer look

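In 5 of the 115 genes of the wider lists, beside 4.37% of all genes tested, the KO effect itself differed between day 2 and day 7, by an interaction term in edgeR's fit of 3 libraries per group with Benjamini-Hochberg adjustment over all genes. That share of the lists is close to the one over all genes and is no result about the lists as such. The values are differences in log2 fold change, day 7 minus day 2. Slc7a3 changed by 4.75 ± 0.92 (SE; adjusted p = 0.00584), a fitted value that rests on 0 to 5 counts in each library of WT on both days and of KO on day 2. Ero1l changed by 1.23 ± 0.22 (adjusted p = 0.00294) and Nars by 0.855 ± 0.24 (adjusted p = 0.048). Pck2 changed by -0.979 ± 0.17 (adjusted p = 0.00294) and Edem2 by -0.793 ± 0.20 (adjusted p = 0.0316). None of the 10 stress response genes differed between these days past the threshold. Groups of 3 libraries were too small for a search for single samples far from the rest.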

How the results depend on the processing

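On day 7, 6 of the 10 genes were called, 5 to 7 in the other fits of all libraries and 3 to 6 with a library left out. Hspa5 was the gene lost with the replicate number as a block (adjusted p = 0.0537). On day 14 the count of 0 became 2 with DESeq2 and 1 when a mean count of 50 was required, and was 0 to 1 with a library left out. In WT, day 7 against day 2, it became 1 with no filter (Chac1, adjusted p = 0.0424). In WT, day 14 against day 2, the count of 1 became 3 with DESeq2, 2 with no filter, 0 in a fit of only the groups compared, and 0 to 2 with a library left out. For the change in the KO effect from day 2 to day 7 it was 0 to 2 with a library left out. Among the 10 genes, the day 7 median of the 7 ATF4 targets minus that of the 2 ER stress genes was 0.55, and 0.40 to 0.62 with a library left out. The wider lists of both kinds had closer day 7 medians, 0.35 and 0.23. In the other comparisons the count was 0 in every fit run.

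Directions turned only for values not called in any fit. With a library left out, day 2 log2 fold changes ran from -0.055 to 0.19 for Atf5, -0.022 to 0.18 for Ddit3, -0.27 to 0.011 for its short row, -0.17 to 0.34 for Asns, -0.023 to 0.39 for Trib3, -0.22 to 0.30 for Chac1 and -0.040 to 0.13 for Xbp1. On day 7 they ran from -0.16 to 0.19 for Asns, which was -0.00101 with the 20 most abundant genes left out, and from -0.21 to 0.052 for Xbp1. On day 14 they ran from -0.11 to 0.27 for Chac1, -0.20 to 0.10 for Slc1a5 and -0.32 to 0.31 for Atf3, which was -0.0051 with the replicate number as a block. The cause was not tested.

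The replicate number as a block changed no other call of the 10 genes in a comparison of KO with WT. A block for each number and day gave no value for WT between days. No scaling moved the median of all genes by over 0.1 on the log2 scale. Chac1, with 15 to 172 counts per library, and Trib3, with 21 to 245, had the fewest counts of the 10 genes. With 3 libraries per group, a missed threshold does not show that levels were equal.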
